A study of Mus musculus with 6 samples.

Results

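Complement is a set of blood and tissue proteins that tag particles and damaged cells, call in immune cells and form pores in membranes. Its genes were followed in the inguinal fat, which lies beneath the skin of the groin, in male mice of the C57BL/6J strain. The genes are 34 named components, inhibitors and receptors, chosen by symbol, and every non-control array probe that carries one of these symbols was used. This gave 46 probes for 33 genes, of 55681 probes with 34844 gene names on the array. No probe carried the name C4a.

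Both groups held 3 samples, each measured on 1 single-colour Agilent array. The mice titled DIO_CR_WR (diet-induced obesity, calorie restriction, weight regain) started at 2 months of age with 1 month on a diet that took 60% of its energy from fat. Their calories were then cut for about 3 weeks until their weight matched that of chow-fed mice of equal age, and in the last period they regained weight on free access to the same fatty diet. The mice titled DIO ate chow until that last period and then the fatty diet, so all 6 samples come from mice on the fatty diet at the end. The treatment protocol names the first group DIO and the second CTR, and the sample titles are followed here. Age labels are 9 to 11 months for DIO_CR_WR and 6 to 8 months for DIO, a different age for each sample. No label says whether a sample is 1 mouse or a pool, so the p-values measure the spread between these samples, which may be technical.

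Complement starts by several routes. In the classical pathway C1q binds antibody or dying cells and the attached proteases C1r and C1s cut C4 and C2. In the lectin pathway, mannose-binding lectins and ficolins bind sugars on microbes and their MASP proteases cut the same substrates. In the alternative pathway factor D cuts factor B and properdin steadies the resulting enzyme. All routes cut C3. Fat tissue is known for its own complement output: adipocytes secrete factor D, also called adipsin, and macrophages of fat make C1q.

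Values below are scaled signals: the processed intensity of a probe divided by the 75th percentile of its array and multiplied by 5638, the geometric mean of the 6 percentiles. Signals of different probes are not on one scale of RNA amount and are not compared as such. Differences are log2 values of DIO_CR_WR minus DIO and their standard errors (SE) come from limma, 3 arrays per group. Over all 38457 probes tested the median difference was −0.19, and a relative difference is one from which this median was taken off. When the arrays were scaled to the spike-in RNA instead, the median was 0.27, so directions below hold for the percentile scaling. At an unadjusted p under 0.05, scaling to spike-ins gave 17 of 41 complement probes higher and 1 lower. Of all probes 18.6% were then higher and 3.42% lower. Between 51.6% and 65.7% of probes were well above background on the DIO_CR_WR arrays, against 68.2% to 79.2% on the DIO arrays. The lowest scaled signal called well above background was 292, 117 and 84.1 on DIO_CR_WR arrays 1 to 3, against 64.9, 37.6 and 35.8 on DIO arrays 1 to 3, so dim genes were measured less well in DIO_CR_WR. All 10 adipocyte markers were detected on every array, with Adipoq at 216204, 101551 and 208001 in DIO_CR_WR fat against 132417, 152612 and 161448 in DIO fat. The 8 skeletal muscle markers were also above background on every array. At an unadjusted p under 0.05, 4 of their 10 probes (40%) were lower in DIO_CR_WR and 0 higher. Over all probes 20.8% were lower and 5.34% higher. The median difference of the muscle probes was −0.48. Slide 1 carried the 3 DIO_CR_WR arrays with DIO replicate 1, and slide 2 the other DIO arrays. In whole tissue, fewer cells of a type and less RNA per cell cannot be told apart.

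Factor D, C8g, Cd55 and the 2 Masp2 probes that gave signal were lower in DIO_CR_WR fat, on all or most arrays. The receptors of the complement fragments, C3ar1 and C5ar1, had higher means there. C4b, factor B, C1qa, C1qb and the brighter C3 probe overlapped between the groups. None of these differences passed the test over all probes. Of the 46 probes 41, from 32 genes, were well above background on at least 3 of 6 arrays and were tested, and limma called 0 of them at an adjusted p under 0.05, where 0% of all probes were called. At an unadjusted p under 0.05, 1 complement probe (2.44%) was higher and 8 (19.5%) were lower, where 5.34% of all probes were higher and 20.8% lower. The groups' arrays did not overlap for 3 probes (7.32%) higher in DIO_CR_WR and 10 (24.4%) lower, where these shares were 7.29% and 25.6% over all probes. Both lower counts include Fcnb, whose probe passed the filter through the DIO arrays alone. The shares over all probes hold such probes too. With the percentile scaling, all 4 shares lay near those of the array as a whole or, for the higher probes at an unadjusted p, below it. Relative to the median of all probes 28 of the 41 lay above and 13 below, and their median relative difference was 0.19.

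**Figure D1:**
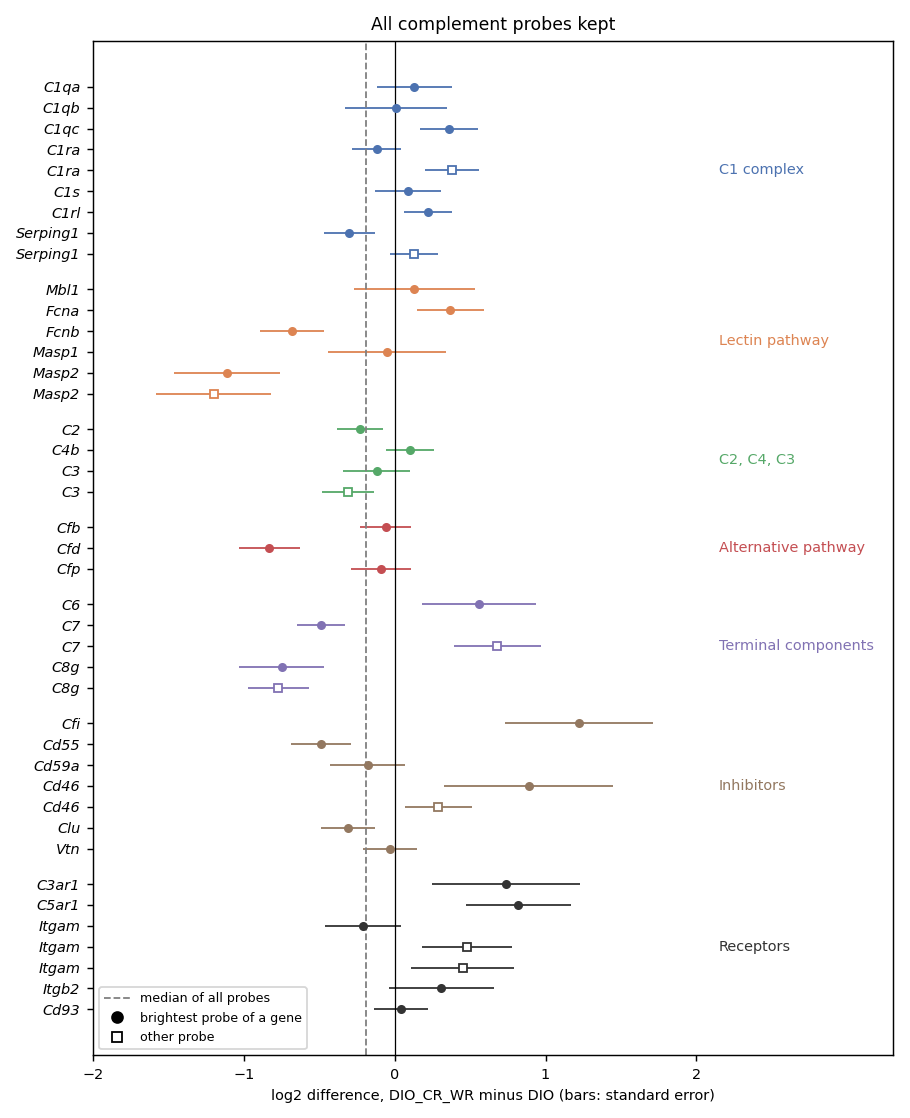
Log2 differences (x axis, DIO_CR_WR minus DIO, bars are SE) of the 41 complement probes tested, grouped by role. Filled circles are the brightest probe of a gene, open squares its other probes, and the dashed line is the median of all probes at −0.19; Masp2, Cfd and C8g lie to its left and Cfi, C5ar1 and C3ar1 to its right.

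For the C1 complex, taken with the C1r-like protease C1rl and C1 inhibitor, all 9 probes of 7 genes were tested. At an unadjusted p under 0.05 there were 0 in either direction. C1qa, a chain of the C1q recognition molecule, read 60163, 54715 and 78117 in DIO_CR_WR fat and 44691, 57036 and 76789 in DIO fat. C1qb, the second chain, read 104136, 74511 and 80983 in DIO_CR_WR fat and 54965, 85285 and 132647 in DIO fat. For both chains the DIO arrays spanned a wider range than the DIO_CR_WR arrays, with DIO replicate 1 lowest and DIO replicate 3 highest, and the groups overlapped. The log2 differences were 0.13 ± 0.25 SE for C1qa and 0.01 ± 0.34 SE for C1qb.

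C1qc, the remaining chain, read 36076, 41479 and 36067 in DIO_CR_WR fat and 24861, 28020 and 36364 in DIO fat. DIO replicate 3 lay among the DIO_CR_WR arrays and the other 2 DIO arrays below them, which gave a log2 difference of 0.36 ± 0.19 SE (limma adjusted p = 0.274). The proteases C1ra and C1s and the C1r-like protease C1rl had differences between −0.12 and 0.38 over 4 probes. The brighter C1ra probe gave −0.12 ± 0.16 SE and the second 0.38 ± 0.18 SE. C1ra has a near-identical neighbour, C1rb, so signal of the pair may be shared, and the C1rb probe gave 0.04 ± 0.18 SE.

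Serping1 encodes C1 inhibitor, which blocks C1r, C1s and the MASP proteases. Its brighter probe read 48489, 43268 and 46826 in DIO_CR_WR fat and 47931, 59888 and 63922 in DIO fat, a log2 difference of −0.30 ± 0.17 SE. The second Serping1 probe gave 0.13 ± 0.16 SE, so the gene's direction depended on the probe.

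Lectin pathway genes split into bright and barely detected members. Fcna, a ficolin of macrophages in mice, read 38699, 25328 and 32567 in DIO_CR_WR fat and 22451, 29555 and 22215 in DIO fat (log2 0.37 ± 0.22 SE, limma adjusted p = 0.32), with overlapping groups. Mbl1, a mannose-binding lectin, ranged from 743 to 1672 in DIO_CR_WR fat and from 631 to 1209 in DIO fat. Mbl2, its relative, was well above background on 0 of 6 arrays. Fcnb, the ficolin of neutrophils and monocytes, had 2 probes, of which 1 was tested, and it was well above background on 0 DIO_CR_WR arrays and 3 DIO arrays. It read 60.2, 42.6 and 52 in DIO_CR_WR fat and 67.5, 89 and 91.5 in DIO fat. Because these DIO_CR_WR values lie under the lowest signal called well above background there, no fold is given for Fcnb. The probe passed the filter through the DIO arrays alone, so its test (limma adjusted p = 0.14) is not read as a difference. The Fcnb probe that was not tested read 75, 442 and 71.8 in DIO_CR_WR fat and 96.5, 29 and 29.8 in DIO fat, well above background on 1 array of each group, and its mean was higher in DIO_CR_WR, so the direction of Fcnb is not settled.

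Masp2, the lectin pathway protease that cuts C4 and C2, had 3 probes, described in the array files under different transcripts of the gene. The gene also encodes MAp19, a short protein without the protease domain. The first 2 probes below carry the description of transcript variant 2 and lie close together, and the last carries that of variant 1 and lies further along the gene. They are shown because only the first 2 gave signal, so the values below say nothing of variant 1. Whether that signal stands for the protease or for MAp19 was not tested. Coordinates are those of the array files on build mm9, the strand is plus, and the first sequence is the whole probe at chr4:147977855-147977914. The second is the last 30 of 60 bases, at chr4:147978486-147978515, and the last is the first 30 of 60 bases, at chr4:147989478-147989507. Capitals mark AATAAA, the letters of a polyadenylation signal, which 10.1% of all probes on the array hold (3.74% hold its reverse complement).
Masp2 probe 1: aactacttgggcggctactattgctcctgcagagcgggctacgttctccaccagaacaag
Masp2 probe 2: attcaccttaaccatgacaatAATAAAcct
Masp2 probe 3: gctatattgcatcttcccacataagtcacc

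Masp2 probe 1 read 205, 308 and 170 in DIO_CR_WR fat and 302, 580 and 613 in DIO fat. Probe 2 read 155, 247 and 216 in DIO_CR_WR fat and 266, 569 and 666 in DIO fat. Both were well above background on 2 DIO_CR_WR arrays and 3 DIO arrays, while probe 3 reached that on 0 of 6. On DIO_CR_WR replicate 1 the values of probes 1 and 2 lay under the lowest signal called well above background there. The log2 differences of −1.11 ± 0.35 and −1.20 ± 0.38 SE nearly matched between the 2 probes (limma adjusted p = 0.142 for both), and for probe 2 the groups did not overlap. DIO replicate 1 was the lowest DIO array for both, and blocking on slide left differences of −0.45 and −0.39. Without DIO replicate 1 both probes passed, with limma adjusted p = 0.0385 and 0.0293, but the groups were then on different slides. In that setting 14% of all probes passed, and 5 of the 41 complement probes tested. Of the 3 probes of Masp1, the other protease of this pathway, the tested one gave −0.05 ± 0.39 SE. Another Masp1 probe was well above background on 1 DIO_CR_WR array and 0 DIO arrays and the last on 0 of 6 arrays, so no fold is given for them.

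C4 and C2 form the enzyme by which the classical and lectin pathways cut C3, the step at which all routes meet. C2, the protease part of that enzyme in the classical and lectin pathways, read 23040, 20207 and 19846 in DIO_CR_WR fat and 25268, 25318 and 23257 in DIO fat. The groups did not overlap, but the gap was small (log2 −0.23 ± 0.15 SE, limma adjusted p = 0.362) and the relative difference was −0.04. C4b, its partner, read 68197, 59030 and 56650 in DIO_CR_WR fat and 52741, 57411 and 61429 in DIO fat (log2 0.10 ± 0.16 SE). The accessions that the array files give for the C4b probe belong to both C4b and C4a in the RefSeq gene table, so its signal stands for the pair. It was the only one of 40 complement probes with a matched RefSeq accession that pointed to more than 1 gene. The first 30 of its 60 bases, at chr17:34865358-34865387 on the minus strand of mm9, are shown for that reason.
C4b probe: cctcactggattagaggctctgctctacag

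C3, whose cleavage labels targets and releases the fragment C3a, was bright on both probes. The brighter read 103002, 63823 and 74701 in DIO_CR_WR fat and 77765, 87596 and 92023 in DIO fat, with DIO_CR_WR replicate 1 above and the other 2 DIO_CR_WR arrays below all DIO arrays. The second, printed in 10 spots, read 52792, 46680 and 54281 in DIO_CR_WR fat and 54614, 64957 and 71928 in DIO fat. The log2 differences were −0.12 ± 0.22 and −0.31 ± 0.17 SE, or 0.07 and −0.12 relative to all probes.

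In the alternative pathway factor D stood apart from factor B and properdin. Cfd read 101865, 78880 and 82107 in DIO_CR_WR fat and 126517, 172024 and 168982 in DIO fat. All 3 DIO_CR_WR arrays lay below all DIO arrays. The log2 difference of −0.83 ± 0.20 SE (0.564-fold) had the smallest p of the complement probes and did not pass (limma adjusted p = 0.128). With the slide as a block it was −0.54. Without DIO replicate 1 it was −0.97 and passed (limma adjusted p = 0.034), as 14% of all probes did, with the groups on different slides. The first 30 of 60 bases of the Cfd probe, at chr10:79355302-79355331 on the plus strand of mm9, are given because of that rank.
Cfd probe: aacatcacaaatggtaacatgacatcctga

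Cfb, factor B, read 37670, 49308 and 48273 in DIO_CR_WR fat and 48178, 43858 and 48092 in DIO fat (log2 −0.06 ± 0.17 SE). Cfp, properdin, ranged from 33815 to 43973 in DIO_CR_WR fat and from 34407 to 46644 in DIO fat (log2 −0.09 ± 0.20 SE). Beside Cfd, 4 of 13 probes of the adipocyte markers (30.8%) were lower and 0 higher at an unadjusted p under 0.05. Over all probes 20.8% were lower and 5.34% higher. The median difference of the adipocyte markers was −0.34. Their mean level was 3.50, 3.40 and 3.36 in DIO_CR_WR fat and 3.54, 3.67 and 3.87 in DIO fat (log2 relative to each array's 75th percentile). Taken as deviations from each probe's mean minus those of all probes, the groups overlapped. These values were 0.05, −0.05 and −0.15 in DIO_CR_WR fat and 0.02, −0.05 and 0.19 in DIO fat. Adipoq itself gave 0.16 ± 0.32 SE and Fabp4, the fatty acid carrier of adipocytes, −0.08 ± 0.29 SE. The part of adipocyte or muscle content in the Cfd difference was not tested.

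**Figure D2:**
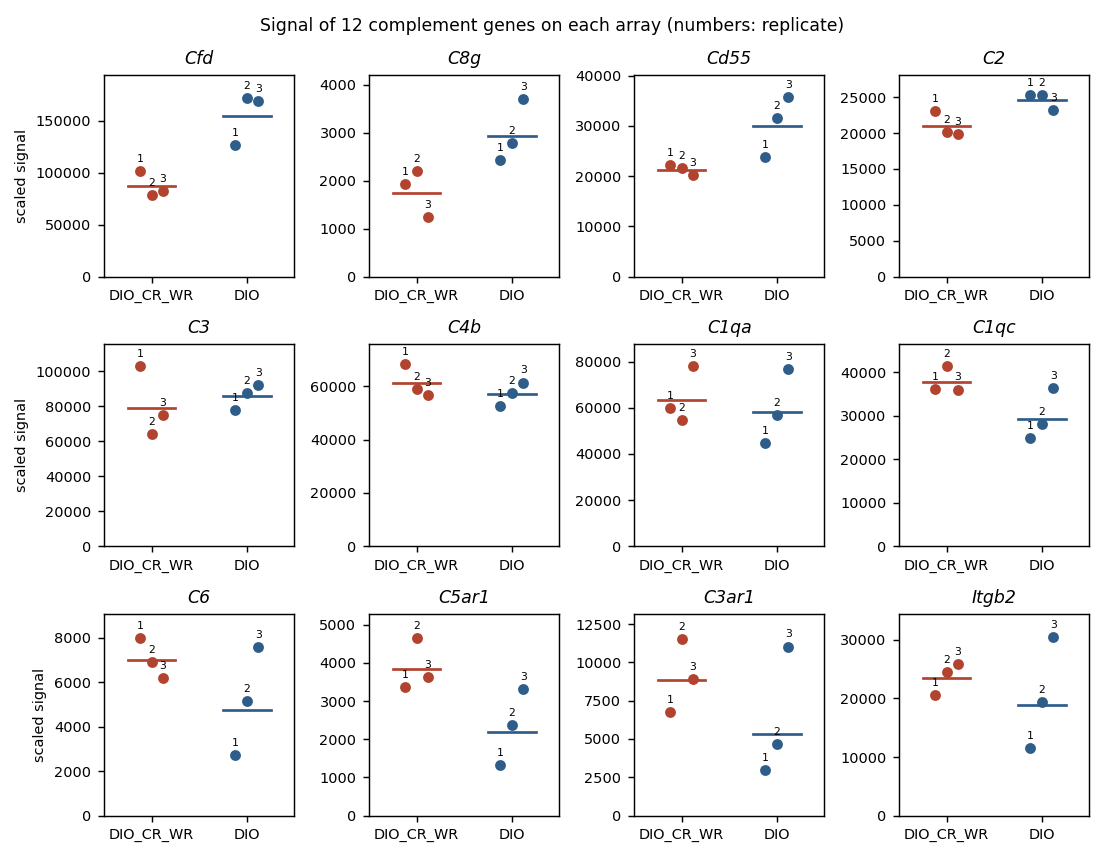
Scaled signal (y axis, from 0) of 12 complement genes on each array, by the brightest probe of each; points carry the replicate number and lines are geometric means of 3 arrays. For Cfd, C8g, Cd55 and C2 all DIO_CR_WR arrays lie below all DIO arrays, for C5ar1 all lie above, and the others overlap.

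The terminal components C6, C7 and C8, together with C5 and C9, assemble the membrane pore. C8g encodes the gamma chain of C8, and both its probes were tested. The brighter read 1929, 2208 and 1240 in DIO_CR_WR fat and 2427, 2794 and 3707 in DIO fat, and the second 1478, 1583 and 1218 in DIO_CR_WR fat and 2068, 2382 and 2857 in DIO fat. On both probes the groups did not overlap, and the log2 differences of −0.75 ± 0.28 and −0.77 ± 0.20 SE were alike (limma adjusted p = 0.165 and 0.13). With the slide as a block they were −0.48 and −0.54. The second probe passed without DIO replicate 1 (limma adjusted p = 0.0439), where 14% of all probes passed.

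C7, which lets the growing complex insert into membranes, had differences of opposite sign on its 2 probes, which are 60 bases each on the minus strand of chromosome 15. The first lies at chr15:4952733-4952792 and the second at chr15:4981891-4981950 (mm9), so the second is nearer the 5′ end on this strand.
C7 probe 1: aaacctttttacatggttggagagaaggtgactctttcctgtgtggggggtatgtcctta
C7 probe 2: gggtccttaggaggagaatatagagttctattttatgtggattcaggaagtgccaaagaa
Probe 1 read 685, 679 and 761 in DIO_CR_WR fat and 896, 966 and 1140 in DIO fat, without overlap (log2 −0.49 ± 0.16 SE, limma adjusted p = 0.147). Probe 2 read 170, 126 and 218 in DIO_CR_WR fat and 86.3, 144 and 92.2 in DIO fat (log2 0.68 ± 0.29 SE), and was well above background on 1 DIO_CR_WR array, so its direction is less firm than that of probe 1. The gap of 1.17 between them was the widest among the 8 complement genes with several probes tested, whose gaps had a median of 0.46 and were narrowest, at 0.02, for C8g.

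C6, chosen for description after its values were seen, read 8004, 6926 and 6188 in DIO_CR_WR fat and 2714, 5152 and 7608 in DIO fat. DIO replicate 1 was the lowest array and DIO replicate 3 lay within the DIO_CR_WR range. The log2 difference was 0.56 ± 0.38 SE (limma adjusted p = 0.368), 1.37 with the slide as a block and 0.16 without DIO replicate 1.

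Inhibitors keep complement off the body's own cells. Cd55 encodes decay-accelerating factor, which takes apart the C3-cutting enzymes on cell surfaces. It read 22118, 21537 and 20298 in DIO_CR_WR fat and 23841, 31647 and 35805 in DIO fat. The groups did not overlap (log2 −0.49 ± 0.20 SE, limma adjusted p = 0.18), but DIO replicate 1 lay close to the DIO_CR_WR arrays. With the slide as a block the difference was −0.16. It was −0.03 ± 0.21 SE with spike-in scaling and −0.09 ± 0.14 SE with normexp background correction and quantile normalization. Without DIO replicate 1 it was −0.66 and passed (limma adjusted p = 0.0472), as 14% of all probes did. Cd59a, which blocks the membrane pore, ranged from 61243 to 87486 in DIO_CR_WR fat and from 59471 to 93151 in DIO fat (log2 −0.18 ± 0.25 SE).

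Cfi, factor I, the protease that destroys C3b and C4b, was the 1 higher probe at an unadjusted p under 0.05. It read 129, 148 and 175 in DIO_CR_WR fat and 94.6, 98.2 and 28.7 in DIO fat, well above background on 1 DIO_CR_WR array and 2 DIO arrays. The groups did not overlap, with a log2 difference of 1.22 ± 0.49 SE (limma adjusted p = 0.182), and 0.66 after blocking on slide. DIO_CR_WR replicate 1, at 129, and DIO replicate 3, at 28.7, lay under the lowest signal called well above background on their arrays. Without DIO replicate 3 the difference was 0.64. Since most DIO_CR_WR arrays were not well above background, neither size for Cfi is taken as a measured fold. Cd46, a cofactor of factor I, read 346, 1111 and 269 in DIO_CR_WR fat and 322, 296 and 172 in DIO fat on its brighter probe (log2 0.89 ± 0.56 SE), where DIO_CR_WR replicate 2 stood far above the other 5 arrays. Its second probe gave 0.29 ± 0.22 SE.

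Clu and Vtn encode clusterin and vitronectin, plasma proteins that keep the pore from inserting. Clu read 34765, 25730 and 30954 in DIO_CR_WR fat and 35503, 41630 and 35701 in DIO fat (log2 −0.31 ± 0.18 SE, limma adjusted p = 0.307). All DIO_CR_WR arrays lay below all DIO arrays, with DIO_CR_WR replicate 1 close to DIO replicate 1. Vtn ranged from 9419 to 9564 in DIO_CR_WR fat and from 8004 to 11012 in DIO fat (log2 −0.03 ± 0.18 SE).

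Receptors carry the complement signal into immune cells. C5ar1, the receptor for C5a, read 3375, 4643 and 3627 in DIO_CR_WR fat and 1319, 2374 and 3316 in DIO fat. All DIO_CR_WR arrays lay above all DIO arrays, the lowest by a small margin (log2 0.82 ± 0.35 SE, limma adjusted p = 0.201). C3ar1, the receptor for C3a, read 6772, 11552 and 8932 in DIO_CR_WR fat and 2958, 4642 and 11032 in DIO fat. Here DIO replicate 3 was as high as the DIO_CR_WR arrays (log2 0.74 ± 0.49 SE, limma adjusted p = 0.367). Without DIO replicate 1 the differences were 0.45 for C5ar1 and 0.31 for C3ar1. Itgb2 encodes CD18, the beta chain of complement receptors 3 and 4. It read 20658, 24480 and 25912 in DIO_CR_WR fat and 11552, 19384 and 30418 in DIO fat (log2 0.31 ± 0.35 SE, and −0.04 without DIO replicate 1). Cd93, a surface protein of endothelial and myeloid cells once described as a C1q receptor, ranged from 37468 to 44175 in DIO_CR_WR fat and from 34449 to 46683 in DIO fat (log2 0.04 ± 0.18 SE).

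Itgam encodes CD11b, the alpha chain of complement receptor 3, which binds C3b fragments. Its 3 probes lie on the plus strand of chromosome 7 (mm9): the brightest at chr7:135261755-135261814, of which the first 30 bases are given, the second at chr7:135260275-135260334 and the third at chr7:135212140-135212199, both whole. They are shown because the brightest holds a run of 10 CA pairs, marked with a further short run in capitals.
Itgam probe 1: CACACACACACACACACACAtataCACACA
Itgam probe 2: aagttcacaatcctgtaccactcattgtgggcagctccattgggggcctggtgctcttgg
Itgam probe 3: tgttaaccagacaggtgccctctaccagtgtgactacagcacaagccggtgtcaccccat

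Itgam probe 1 read 133704, 82101 and 132633 in DIO_CR_WR fat and 109935, 133496 and 152280 in DIO fat (log2 −0.21 ± 0.25 SE). Probe 2 read 3940, 3692 and 4129 in DIO_CR_WR fat and 1843, 2943 and 4101 in DIO fat (log2 0.48 ± 0.30 SE), and probe 3 gave 0.45 ± 0.34 SE. Only on the repeat probe was the DIO_CR_WR mean lower. Probes 2 and 3 had DIO replicate 1 lowest and DIO replicate 3 highest among the DIO arrays, as C5ar1, C3ar1 and Itgb2 had. A run of at least 8 CA pairs was found in 34 of 55681 probes (0.0611%), whichever gene they were named for, and its reverse complement in 71 (0.128%). The median scaled signal of the 34 probes was 116580, against 358 over all probes, and 33 of them were above 10000. These are brightnesses of probes, not RNA levels. How much of the signal of probe 1 comes from Itgam RNA was not tested.

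**Figure D3:**
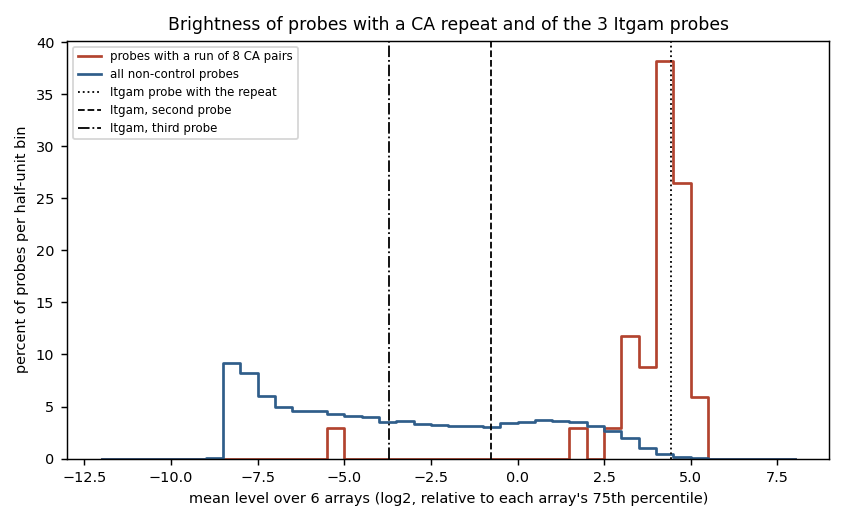
Share of probes (y axis, percent per bin) by mean level over the 6 arrays (x axis, log2 relative to each array's 75th percentile) for the 34 probes with a run of CA pairs and for all 55681 probes. Vertical lines are the 3 Itgam probes, of which the repeat probe lies at 4.43 among the other CA probes and the others at −0.76 and −3.72.

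Over the 7 receptor probes the mean score, the average deviation from each probe's mean over the 6 arrays minus that of all probes, was 0.29, 0.27 and 0.25 on DIO_CR_WR arrays 1 to 3, and −0.69, −0.35 and 0.23 on DIO arrays 1 to 3. The 7 include the repeat probe of Itgam. On this score the DIO_CR_WR arrays lay close together, and the DIO arrays were spread out, with DIO replicate 3 just below the DIO_CR_WR arrays. Before the value of all probes was taken off, mean receptor levels were 0.76, 0.74 and 0.78 in DIO_CR_WR fat. They were −0.16, 0.38 and 0.93 in DIO fat, so DIO replicate 3 was then the highest array. The C1 complex, with C1rl and C1 inhibitor, scored 0.20, 0.10 and 0.10 in DIO_CR_WR fat and −0.15, −0.20 and −0.05 in DIO fat. The levels of this list overlapped, at 2.54, 2.45 and 2.51 in DIO_CR_WR fat and 2.26, 2.41 and 2.52 in DIO fat. Macrophage markers had a like pattern over the arrays: their score was 0.24, 0.30 and 0.17 in DIO_CR_WR fat and −0.43, −0.33 and 0.04 in DIO fat. The levels of these markers overlapped, at 1.09, 1.15 and 1.08 in DIO_CR_WR fat and 0.48, 0.79 and 1.12 in DIO fat. At an unadjusted p under 0.05, 4 of their 18 probes (22.2%, 14 genes tested) had higher levels in DIO_CR_WR fat and 0 lower ones. Over all probes 5.34% were higher and 20.8% lower. All 18 macrophage probes were above background on every array. The brighter probe of Emr1, which encodes the macrophage antigen F4/80, read 30148, 30755 and 27940 in DIO_CR_WR fat and 16542, 20904 and 31420 in DIO fat. Lyz2, lysozyme of macrophages and neutrophils, gave 0.09 ± 0.15 SE, and the 2 probes of Cd68, a lysosomal protein of macrophages, gave −0.22 ± 0.32 and 0.78 ± 0.22 SE. B cell and T cell markers were likewise lowest on DIO replicates 1 and 2: their score was 1.06, 0.20 and 0.33 in DIO_CR_WR fat and −0.92, −0.86 and 0.19 in DIO fat, with a median relative difference of 1.39. At an unadjusted p under 0.05, 6 of 11 probes (54.5%) had higher levels and 1 (9.09%) a lower one, beside the same shares over all probes. Neutrophil markers scored 0.61, −0.21 and 0.12 in DIO_CR_WR fat and −0.17, −0.12 and −0.24 in DIO fat. Of their 10 probes 1 (10%) was higher and 2 (20%) were lower at an unadjusted p under 0.05. The part of macrophage, lymphocyte or neutrophil content in the receptor values was not tested.

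**Figure D4:**
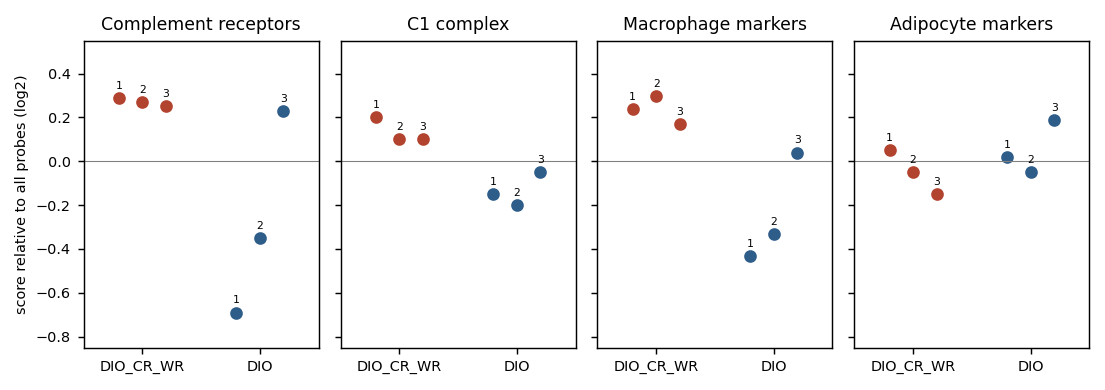
Score relative to all probes (y axis, log2) of complement receptors, C1 complex genes (with C1rl and C1 inhibitor), macrophage markers and adipocyte markers on each array, with replicate numbers. Receptors and macrophage markers are lowest on DIO replicate 1 and highest among DIO arrays on DIO replicate 3, at 0.23 and 0.04.

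With the slide as a block, the comparison rests on DIO replicate 1, since no other DIO array shares a slide with DIO_CR_WR arrays. At an unadjusted p under 0.05 that model gave 6 higher complement probes and 0 lower ones, where 4.43% of all probes were higher and 5.63% lower. The 6 were C5ar1, C3ar1, Itgb2, Itgam probe 2, C6 and C1qc, with log2 differences of 1.54, 1.58, 1.03, 1.09, 1.37 and 0.60, and 0 probes passed after adjustment. These are genes in which DIO replicate 1 was the lowest of the 6 arrays. The 8 probes that were lower over all 6 arrays were also lower in this model, by smaller differences. Slide and group cannot be told apart for DIO replicates 2 and 3. The labelled age differs for every sample and does not overlap between the groups. A model that includes age must extend the trend within each group to the other, so it cannot separate age from group. In that model the differences of C5ar1, C3ar1 and Itgb2 were −0.26 ± 0.60, −0.99 ± 0.73 and −0.98 ± 0.49 SE. None passed (limma adjusted p = 0.802, 0.432 and 0.283). Without age the differences were 0.82, 0.74 and 0.31.

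**Figure D5:**
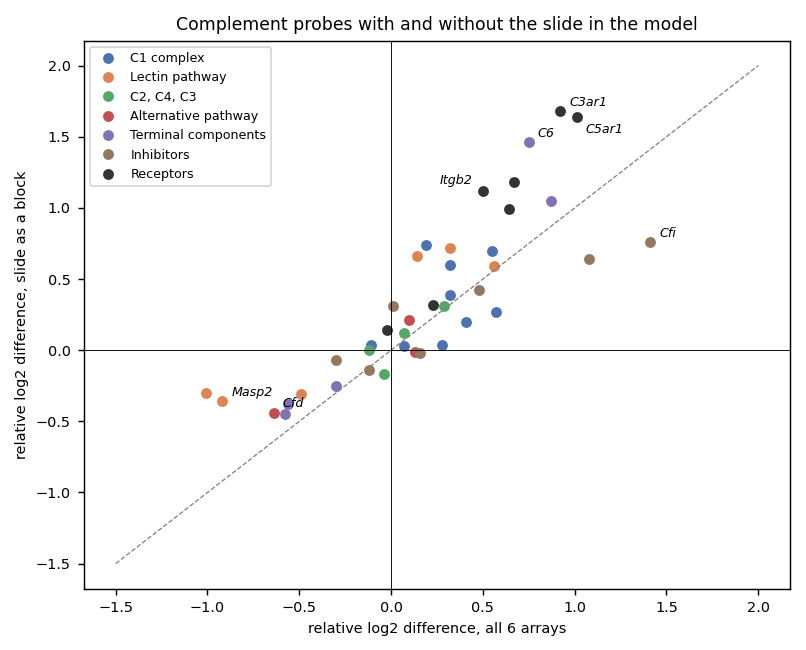
Relative log2 difference of the 41 complement probes with all 6 arrays (x axis) and with the slide as a block (y axis), coloured by role; the dashed line marks equal values. C5ar1, C3ar1, C6 and Itgb2 lie above the line, and Masp2 and Cfd nearer 0 with the slide in the model.

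Other genes of the system, 30 in a separate list, had 26 probes tested from 20 genes. At an unadjusted p under 0.05, 6 of the 26 (23.1%) had higher levels and 2 (7.69%) lower ones in DIO_CR_WR fat, where 5.34% and 20.8% of all probes were, and 0 passed after adjustment. Of the 4 genes with the smallest p, 3 are described. Cfhr2, of a family of secreted complement regulators, read 13581, 11273 and 13674 in DIO_CR_WR fat and 7240, 6693 and 8567 in DIO fat on its brighter probe. Its 2 probes gave 0.78 ± 0.18 and 0.93 ± 0.23 SE (limma adjusted p = 0.125 and 0.128), without overlap between the groups.

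Vsig4, the complement receptor of resident macrophages, read 6929, 5405 and 6904 in DIO_CR_WR fat and 2190, 2606 and 4396 in DIO fat (log2 1.12 ± 0.29 SE, limma adjusted p = 0.131), without overlap. Cr2, the receptor of B cells for C3d, was lower on its brighter probe, at 5461, 6915 and 8346 in DIO_CR_WR fat and 10491, 12486 and 13522 in DIO fat. Its second probe gave 0.32 ± 0.47 SE. Among B cell markers, looked at after their values were seen, Cd79b gave 1.52 ± 0.42 SE and Ms4a1 0.90 ± 0.89 SE, while Cd22 gave −0.20 ± 0.33 SE.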

How the data were processed

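Per the file headers, the deposited intensity values are single-colour scans read by Agilent Feature Extraction (version 10.7.3.1 in the headers, 10.7.1.1 in the submitters' processing notes), background-subtracted and detrended within each array of design 028005, with no scaling between arrays. A series table with 18 per-sample columns was not used, since its column names do not match the titles. Outlier-flagged spots were set to missing, spots of a probe were averaged as log2, and each array's 75th percentile was subtracted. Probes well above background on at least 3 arrays were kept (38791), less 334 with an outlier flag. DIO_CR_WR was compared with DIO by limma 3.58.1 in R 4.3.3, two-sided, with Benjamini-Hochberg adjustment over 38457 probes. The script was tested on simulated data. The number of arrays limits precision. Values by array are given for the 14 genes with the smallest p and for 11 fixed genes, by the brightest probe tested, and for the 4 other complement genes with the smallest p, of which 1 is not reported here. The genes, lists and tests were chosen with earlier results of these data known. Alternatives covered scaling, background, filters, variance, slide, replicate, age and each array. Deviations of same-numbered arrays correlated at 0, −0.13 and −0.21, so the numbers were not treated as pairs.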

Additional observations from a re-analysis of the deposited data

How the results depend on the processing

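After adjustment 0 probes passed, and the complement probes at an unadjusted p under 0.05 were 1 higher and 8 lower. Scaling to spike-ins called 6 of all probes and gave 17 higher and 1 lower complement probes and 11 higher and 0 lower of the other complement genes (7154 of all probes higher and 1316 lower, against 2054 and 7987). Centring on the array median gave 4 higher complement probes (2434 higher and 6175 lower of all). Quantile normalization gave 7 (2650 and 5225) and a median relative difference of 0.32, with Serping1 at 0.11, C2 at 0.02, Clu at 0.01 and Itgam at 0.26, opposite in sign to the main values. Normexp with quantile normalization gave 6 higher (2951 and 5790), a median of 0.28, 4 lower other complement probes with a median of 0.31, and Itgam at 0.18. Without a filter 2 were higher, the other complement median was 0.09, C3 was −0.07 and Cfb −0.01 (7753 and 6332 of all). Requiring all 6 arrays above background called 46 of all probes and left 5 lower complement probes of 33 tested (19.4% of all probes lower). Trended, robust variance gave 2 higher (5.98% of all probes).

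With the slide as a block, and with slide 1 alone, 6 were higher and 0 lower, the other complement median was 0.39 with 1 and 0 probes lower, Serping1 was 0.04, Cfb −0.01 and Itgam 0.14. With age as a covariate 0 were higher and 2 lower (4.71% and 19% of all probes), and the median was 0.07. The other complement genes had 1 higher, 1 lower and a median of 0.42. In that model C1qa was −0.34, C1qb −0.28, C2 0.42, Clu 0.21, C3ar1 −0.59 and Itgb2 −0.58. With the replicate number as a block 0 probes passed, so this block changed no call after adjustment. Complement probes were then 1 higher and 6 lower (4.71% and 18.2% of all probes), and the others 6 higher and 2 lower.

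Leaving out 1 array at a time gave 0 to 6 higher and 2 to 10 lower complement probes, 5 to 8 higher and 1 to 4 lower other complement probes, and 0 to 5370 of all probes called. At an unadjusted p under 0.05, between 3% and 8.77% of all probes were then higher and between 8.73% and 27.4% lower. The 5370 (14%) came without DIO replicate 1, when 5 of 41 complement probes passed and slide and group cannot be told apart. Relative differences that changed sign in this way were those of C1qb (−0.05 to 0.49, negative without DIO replicate 1), C2 (−0.11 to 0.05, positive without DIO replicate 1 and, at 0.01, without DIO_CR_WR replicate 3), C3 (−0.12 to 0.23, negative without DIO_CR_WR replicate 1) and Itgam (−0.14 to 0.22, positive without DIO_CR_WR replicate 2 and, at 0.07, without DIO replicate 3). For named genes, 435 relative differences kept sign and side of the threshold, 25 changed sign and 4 newly passed, all without DIO replicate 1. Median centring, spike-in scaling, trended variance and the replicate block cannot change a relative difference, so kept signs there show nothing. The slide block and slide 1 alone gave the same differences. With spike-in scaling the differences themselves turned positive for Serping1 (0.16), C2 (0.23), C3 (0.35), Cfb (0.40), Clu (0.15) and Itgam (0.26). Those of Fcnb, Masp2, Cfd, C7, C8g, Cd55 and Cr2 stayed negative. The causes were not tested. The Itgam values under these settings are all of probe 1, which holds the CA run. Over all 6 arrays Itgam probes 2 and 3 gave 0.67 and 0.64 relative to all probes. Background limits Fcnb, Masp1, Masp2, Cfi, Cd46 and the second C7 probe.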
